A study of Mus musculus with 2 samples.

Results

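Oxidative phosphorylation is described here through 96 genes that encode subunits of its 5 protein complexes, 83 of them in the nuclear genome and 13 in the mitochondrial genome, out of 24393 genes with a column in both deposited tables. Members were chosen by symbol, with assembly factors and pseudogene symbols left out, and sorted by complex from the symbol. The nuclear set held 38 genes of complex I, 4 of complex II, 8 of complex III, 16 of complex IV and 17 of complex V. The mitochondrial set held 7 genes of complex I, 1 of complex III, 3 of complex IV and 2 of complex V. Cox8b and Cox8c met the symbol rule in 1 table alone, with 0 and 1 UMIs, and were left out. Ndufa4 was sorted under complex I by its symbol, although its protein is known as a subunit of complex IV.

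Single-cell RNA was captured on the BD Rhapsody platform from bone marrow of ICR mice, an outbred strain, aged 7 to 8 weeks, after magnetic removal of lineage-positive (mature) cells. The hypoxia group lived for 13 days in an altitude chamber at 52.93 kPa, given as equal to 5000 m, with 19.5% oxygen. The control group was killed on arrival and not kept in parallel, so exposure cannot be told apart from time, age or handling. Each group had 1 library, the sources used here give no number of mice, and no value has a replicate, so no test was run. For the same reason exposure cannot be told apart from the genotypes of the outbred animals or from differences between the 2 libraries.

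Unique molecular identifiers (UMIs), which count captured molecules, were summed over the cells of a type and scaled to a total of 1000000 in each (CPM). They were not divided by transcript length, so a level is compared between cell types and libraries and not between genes. Intervals are exact 95% Poisson or binomial intervals. They cover counting error only and treat UMIs as independent. A log2 ratio is that of hypoxia CPM + 10 over control CPM + 10, which understates the ratio of low genes. A gene was measured in a cell type when it had at least 50 UMIs there over both libraries, and a difference is counted when it reached 1.5-fold on that scale.

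The hypoxia library kept 6280 cells with a median of 21344.5 UMIs, and the control library kept 3917 cells with a median of 32156 UMIs. Cells at or above 20% mitochondrial UMIs were removed (14 hypoxia and 6 control cells), which caps the mitochondrial members. Of the cell labels, 23 occurred in both libraries. These cells were kept in both.

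Cells were sorted into types by summed UMIs of marker genes per 10000, and each type is called by its gate. Hlf, a transcription factor of blood stem cells, marked the stem and multipotent progenitor (HSC/MPP) gate at 2 or more. Dntt marked lymphoid-primed cells at 3, Irf8, Csf1r and Ly86 marked monocytic cells at 6, and Mpo, Elane, Prtn3 and Ctsg marked granulocyte progenitors at 20. S100a8 and S100a9 marked neutrophils at 50, Cpa3, Mcpt8 and Ms4a2 marked basophil/mast cells at 20, and Pf4 and Itga2b marked megakaryocytes at 10. Klf1, Epor, Aqp1 and Ermap marked erythroid cells at 5, and so did Car1 at 5 together with Gata2 at 2. Erythroid cells were then divided by globin into globin-low (under 10), globin-onset (10 to 50) and globin-high (50 or more). Globin-low cells with Gata2 at 1 or more were set apart as early erythroid. There were 11 gates with at least 50 cells in each library, and these were compared.

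The 8 HSC/MPP markers had a median sum of 22.7 per 10000 UMIs in hypoxia cells and 21.3 in control cells of that gate. The sum was 0 in globin-low cells of both libraries. Hlf, which sets the gate, is among the 8, so part of this difference follows from the gating. The HSC/MPP gate held 190 hypoxia and 172 control cells, and 73 of these 362 lay within 1.5-fold above the Hlf limit. The globin-low gate held 2097 and 1761 cells, the early erythroid gate 221 and 272, and the globin-high gate 720 and 149. A shift in which cells fill a gate and a shift in RNA per cell cannot be told apart within these sums.

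Complexes I to IV form the respiratory chain, which passes electrons from NADH and succinate to oxygen and pumps protons across the inner mitochondrial membrane, and complex V, the ATP synthase, uses the proton gradient to make ATP. The mitochondrial genome encodes core membrane subunits of complexes I, III, IV and V, the nucleus encodes all other subunits, and complex II is wholly nuclear. Blood stem cells are known for a low reliance on respiration, while erythroid progenitors keep active mitochondria for heme synthesis before they lose them as reticulocytes.

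Promoters of the 3 genes for subunit c of ATP synthase are shown because these genes make the same mature protein while their shares of UMIs differed between the libraries, and Atp5e and Ndufs6 are shown as 2 further members that were lower in the hypoxia library. Each is the 250 bases before the RefSeq start on build GRCm38.p6, 5′ to 3′ on the gene's strand, which is the minus strand for all of them. Capitals mark GCGC and TGCGC with 1 base of any kind between them (named for the nuclear respiratory factor NRF1), CCGGAAG (for ETS factors) or ACGTG (the core bound by hypoxia-inducible factors), read on either strand. The windows are chr11:96075632-96075881 for Atp5g1, chr15:102671048-102671297 for Atp5g2, chr2:73911327-73911576 for Atp5g3, chr2:174464102-174464351 for Atp5e and chr13:73328483-73328732 for Ndufs6.
Atp5g1: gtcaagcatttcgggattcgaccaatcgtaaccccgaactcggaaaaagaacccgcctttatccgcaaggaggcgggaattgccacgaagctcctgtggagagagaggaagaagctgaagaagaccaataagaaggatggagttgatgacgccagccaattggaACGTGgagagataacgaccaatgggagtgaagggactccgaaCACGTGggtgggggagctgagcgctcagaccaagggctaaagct
Atp5g2: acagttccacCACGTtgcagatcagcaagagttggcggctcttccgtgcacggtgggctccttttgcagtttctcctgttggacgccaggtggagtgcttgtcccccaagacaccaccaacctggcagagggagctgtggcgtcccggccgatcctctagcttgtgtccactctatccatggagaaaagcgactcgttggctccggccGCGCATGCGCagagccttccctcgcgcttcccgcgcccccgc
Atp5g3: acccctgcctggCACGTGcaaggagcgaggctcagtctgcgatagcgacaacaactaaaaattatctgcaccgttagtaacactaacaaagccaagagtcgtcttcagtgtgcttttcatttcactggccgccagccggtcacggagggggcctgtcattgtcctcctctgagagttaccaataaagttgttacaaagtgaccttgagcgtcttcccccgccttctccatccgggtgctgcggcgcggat
Atp5e: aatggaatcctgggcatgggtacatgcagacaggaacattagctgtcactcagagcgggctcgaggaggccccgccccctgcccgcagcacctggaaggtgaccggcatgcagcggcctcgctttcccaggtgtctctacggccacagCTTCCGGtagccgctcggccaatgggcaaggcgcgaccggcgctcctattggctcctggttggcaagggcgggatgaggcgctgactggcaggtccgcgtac
Ndufs6: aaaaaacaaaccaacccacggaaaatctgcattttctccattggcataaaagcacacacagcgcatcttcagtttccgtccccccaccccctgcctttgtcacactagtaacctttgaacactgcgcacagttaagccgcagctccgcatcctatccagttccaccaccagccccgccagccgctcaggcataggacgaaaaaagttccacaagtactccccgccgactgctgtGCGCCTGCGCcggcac

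All 3 subunit c promoters held ACGTG, and of them Atp5g2 also held the NRF1 motif. Among 66 nuclear members with a RefSeq promoter matched by symbol, 13 (19.7%) held the NRF1 motif, against 4.23% of 27025 genes. CCGGAAG was found in 12 members (18.2%), against 7.83% of genes. ACGTG was also found in 12 members (18.2%), against 18.5% of genes, and the YY1 motif, AAGATG followed by GCGG, in 1 member (1.52%), against 0.359% of genes. These are matches of letters and not evidence of binding.

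The transcript of mt-Atp8, a small membrane subunit of ATP synthase, is shown because it had the highest log2 ratio of hypoxia over control (10 CPM added) of the measured mitochondrial members in 10 of 11 gates and shares bases with its neighbour. It lies at chrM:7766-7969 on the plus strand of GRCm38, and its last 43 bases, in capitals, are also the first bases of mt-Atp6, the proton channel subunit. In cells both are read from a single bicistronic RNA, so UMIs of the pair may not be told apart.
mt-Atp8: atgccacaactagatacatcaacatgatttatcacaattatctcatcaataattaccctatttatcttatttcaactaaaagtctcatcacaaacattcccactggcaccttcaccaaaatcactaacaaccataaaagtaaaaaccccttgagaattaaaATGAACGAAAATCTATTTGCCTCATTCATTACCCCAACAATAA

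Nuclear members took a larger share of UMIs in erythroid cells than in stem cells, while mitochondrial members as a whole did not follow. In globin-low cells the nuclear members made up 2.43% of UMIs in hypoxia and 2.52% in control. They made up 1.44% in hypoxia and 1.52% in control HSC/MPP cells. The globin-low share was thus 1.69-fold that of HSC/MPP cells in hypoxia and 1.65-fold in control. Mitochondrial members made up 7.54% and 6.89% in globin-low cells, and 7.30% and 6.54% in HSC/MPP cells. Both libraries showed the same order. UMIs of mitochondrial members were 3.104 and 2.733 times those of nuclear members in globin-low cells, and 5.08 and 4.29 times in HSC/MPP cells.

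For nuclear members the other gates lay between or below these values. This did not hold for mitochondrial members of hypoxia early erythroid cells. Their median share per cell was 7.78% in hypoxia and 6.39% in control early erythroid cells. In globin-low cells it was 7.64% and 6.93%. Megakaryocytes came close to erythroid cells, with nuclear members at 2.23% in hypoxia and 2.29% in control. Granulocyte progenitors held 1.88% and 1.99%, and monocytic cells 1.93% and 1.97%. Lymphoid-primed cells, at 1.48% in both libraries, were near HSC/MPP cells. Neutrophils were lowest for nuclear members, at 1.053% and 1.278%, and with 3.96% and 4.94% they were also low for mitochondrial members. Basophil/mast cells had 1.34% and 1.30% from nuclear members and 4.65% and 4.50% from mitochondrial members.

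**Figure D1:**
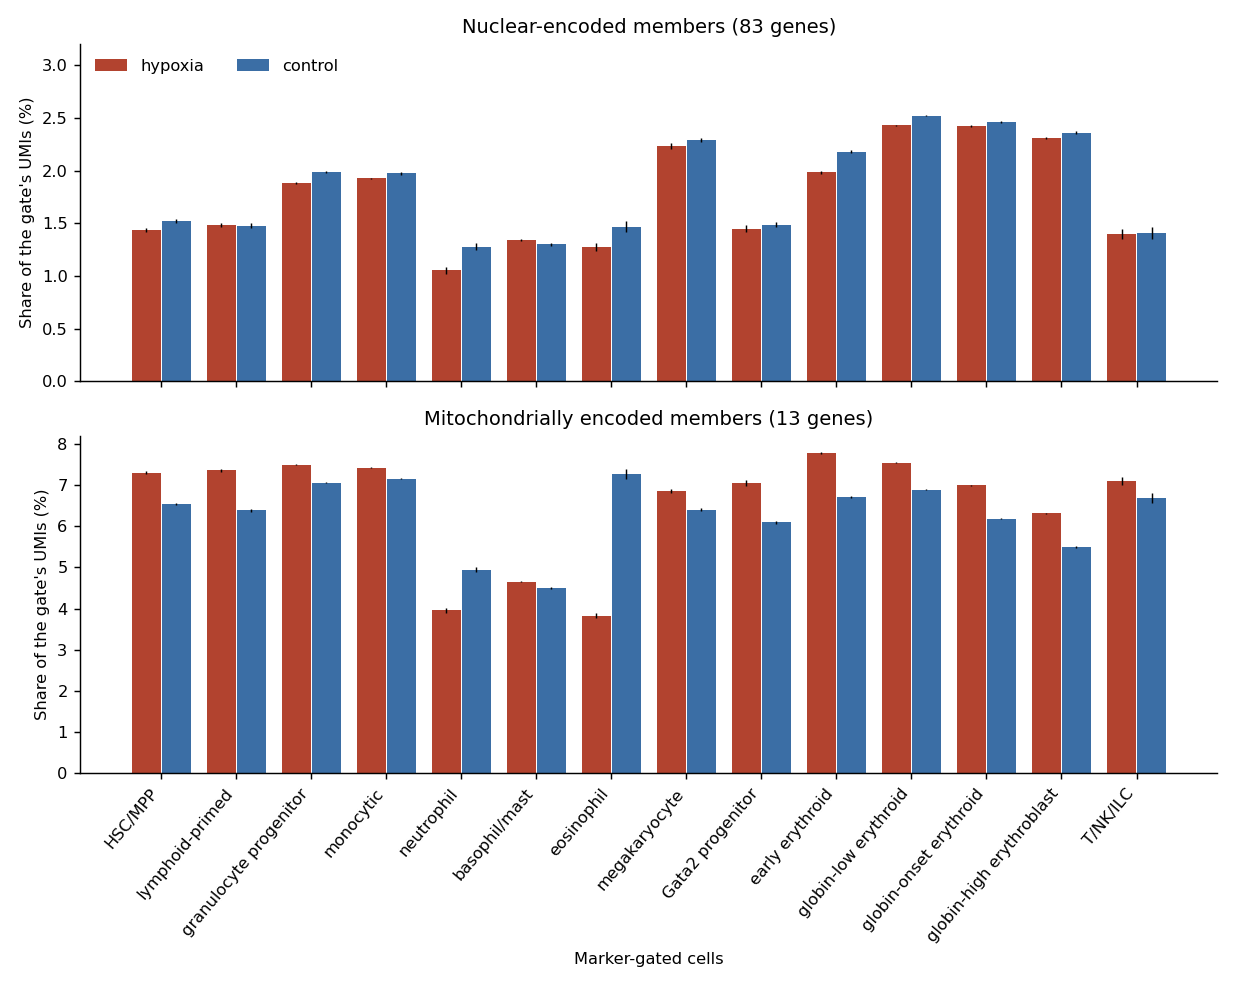
Share of each gate's UMIs (%) from nuclear members (upper panel) and mitochondrial members (lower panel), with the hypoxia library beside the control library in every gate and exact 95% intervals for counting error. Nuclear shares run from 1.053% in hypoxia neutrophils to 2.52% in control globin-low cells, while the mitochondrial shares of HSC/MPP and globin-low cells differ little.

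Within the erythroid lineage the nuclear share was high before globin appeared. Early erythroid cells had 1.98% in hypoxia and 2.18% in control, globin-onset cells 2.42% and 2.46%, and globin-high cells 2.31% and 2.36%. The mitochondrial share was lower with more globin, at 6.99% and 6.18% in globin-onset cells and 6.32% and 5.50% in globin-high cells. Globin transcripts enter the total in these last gates and lower the share of every other gene, nuclear and mitochondrial alike. The ratio of mitochondrial over nuclear member UMIs does not depend on this total. That ratio was 2.89 in hypoxia and 2.52 in control globin-onset cells, and 2.73 and 2.33 in globin-high cells. In globin-low cells it was 3.104 and 2.733. The part of globin in the lower mitochondrial share was not tested.

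Gene by gene, the difference between globin-low and HSC/MPP cells covered every complex. Of 78 nuclear members with at least 50 UMIs over both gates in each library, 73 had a log2 ratio above 0 in both libraries and 51 were at least 1.5-fold higher in both, against 11.5% of all 10672 genes so measured. None was at least 1.5-fold lower in both, against 22.4% of those genes. The median log2 ratio of globin-low over HSC/MPP cells was 0.73 in hypoxia and 0.77 in control for nuclear members, and 0.04 and 0.07 for the 13 mitochondrial members. Over all genes it was -0.09 and -0.13. The nuclear members not counted there were Cox7b2, Ndufa4l2, Cox7a1, Cox4i2 and Cox6a2, all of low count in these gates.

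In complex I, whose peripheral arm oxidizes NADH, 21 of 37 nuclear members were at least 1.5-fold higher in globin-low cells in both libraries. Ndufv1, which binds NADH and flavin, was at 144 CPM in hypoxia and 142 CPM in control globin-low cells, against 64.8 CPM and 65.8 CPM in HSC/MPP cells. Ndufs1, the largest iron-sulfur subunit, was at 166 CPM and 131 CPM, against 63.8 CPM and 51.1 CPM. Of the accessory subunits, Ndufa10 and Ndufa5 were also at least 2-fold higher in both libraries. Ndufa13 varied least over gates among complex I members with more than a few UMIs, between 92.8 CPM and 129.9 CPM in hypoxia. Ndufa3, an accessory subunit, had its highest level in megakaryocytes, at 385 CPM and 406 CPM, against 105 CPM and 122 CPM in HSC/MPP cells.

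Complex II, succinate dehydrogenase, also belongs to the citric acid cycle. Its membrane anchor Sdhd was at 464 CPM in hypoxia and 426 CPM in control globin-low cells, against 184 CPM and 179 CPM in HSC/MPP cells. The flavoprotein Sdha was at 239 CPM and 222 CPM, against 175 CPM and 184 CPM. The iron-sulfur subunit Sdhb was at 130.0 CPM and 129.8 CPM, against 78.5 CPM and 80.5 CPM. The second anchor Sdhc was at 241 CPM and 208 CPM, against 147 CPM and 141 CPM. All 4 genes were thus higher in globin-low cells in both libraries, and 2 of the 4 reached 1.5-fold in both.

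In complex III, cytochrome bc1, 6 of 8 nuclear members were at least 1.5-fold higher in both libraries, with a median log2 ratio of 0.90 in hypoxia and 0.87 in control. Uqcrfs1, the Rieske iron-sulfur protein, was at 323 CPM and 339 CPM, against 164 CPM and 177 CPM. Uqcr11, a small accessory subunit, had log2 ratios of 1.38 and 1.44. Uqcr10, another small subunit, had the narrowest range of log2(CPM + 10) over gates in complex III, as the mean of both libraries, lying between 33.9 CPM and 82.4 CPM in hypoxia and 37.2 CPM and 88.4 CPM in control. The mitochondrial member mt-Cytb, cytochrome b, was at 7278 CPM and 7374 CPM in globin-low cells, against 7302 CPM and 7008 CPM in HSC/MPP cells.

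In complex IV, cytochrome c oxidase, 10 of 12 nuclear members were at least 1.5-fold higher in both libraries. Cox6a1 had log2 ratios of 1.34 in hypoxia and 1.31 in control. Cox7a2l, known as a factor that joins complexes III and IV into supercomplexes, went the other way, at 237 CPM and 192 CPM in globin-low cells, against 338 CPM and 328 CPM in HSC/MPP cells. In complex V, 12 of 17 nuclear members were at least 1.5-fold higher in both. Atp5a1, the alpha subunit of the catalytic head, was at 1271 CPM and 1156 CPM, against 798 CPM and 765 CPM. Atp5b, the catalytic beta subunit, was at 687 CPM and 725.5 CPM, against 312 CPM and 365 CPM. By the same measure, in which the added 10 CPM narrows the range of a low gene, Atp5s was narrowest in complex V, between 6.78 CPM and 23.9 CPM in hypoxia and 9.77 CPM and 16.9 CPM in control.

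**Figure D2:**
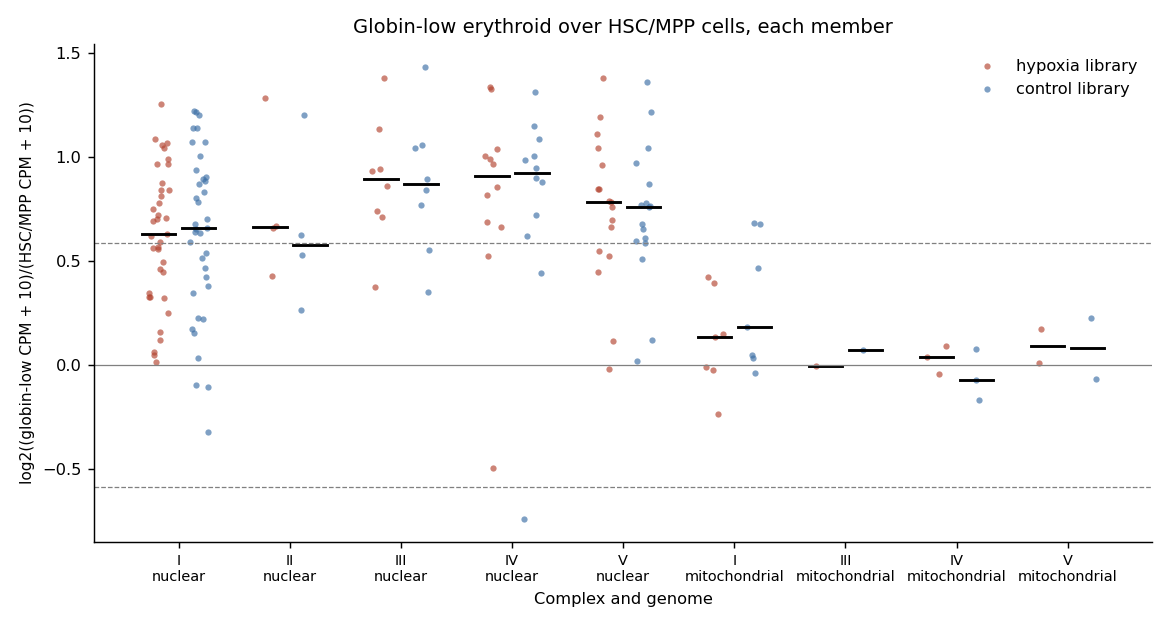
Log2 ratio of globin-low erythroid over HSC/MPP CPM (10 added) for each measured member, by complex and genome, with the hypoxia library left of the control library. Nuclear members of every complex lie mostly above 0, with medians of 0.73 in hypoxia and 0.77 in control. The 13 mitochondrial members have medians of 0.04 and 0.07, and 6 of them lie above 0 in both libraries.

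The 13 mitochondrial members differed in how they stood between these gates. None was at least 1.5-fold higher in both libraries. The highest log2 ratios of globin-low over HSC/MPP cells were those of mt-Nd3, 0.42 in hypoxia and 0.68 in control, and mt-Nd1, 0.39 and 0.68. Both encode core membrane subunits of complex I. Complex I transcripts made up 28.9% of mitochondrial member UMIs in hypoxia and 28.2% in control HSC/MPP cells, and 30.9% and 34.1% in globin-low cells. Complex IV transcripts made up 47.1% and 47.0% in HSC/MPP cells, and 45.8% and 42.4% in globin-low cells.

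Between the libraries, mitochondrial members were mostly higher and nuclear members mostly slightly lower in hypoxia. The median log2 ratio of hypoxia over control over all cells was 0.17 for mitochondrial and -0.07 for nuclear members, against 0.03 for all genes measured. In HSC/MPP cells the medians were 0.23 and -0.07, in early erythroid cells 0.32 and -0.15, and in globin-low cells 0.21 and -0.04. The mitochondrial median was above 0 in 10 of the 11 gates, with neutrophils the exception at -0.30. The nuclear median lay between -0.23 and 0.02, and in megakaryocytes and globin-high cells its sign turned with cells weighted equally (0.08 and 0.07). The gates share the same 2 libraries, so they are not independent of each other.

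The difference was seen across the cells of a gate. In HSC/MPP cells the quartiles of the mitochondrial share per cell were 6.61%, 7.24% and 7.84% in hypoxia and 5.74%, 6.39% and 7.19% in control. In globin-low cells they were 6.84%, 7.64% and 8.35% in hypoxia and 6.28%, 6.93% and 7.53% in control. The upper quartile of the control cells lay near the median of the hypoxia cells in both gates.

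The median depth was lower in hypoxia in every compared gate, for example 9028.5 UMIs against 10568 in HSC/MPP cells and 29800 against 42636 in globin-low cells. With every cell thinned to 3000 UMIs the mitochondrial medians stayed above 0, at 0.25 in HSC/MPP and 0.21 in globin-low cells, in all 10 gates that still held 50 cells in each library.

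The mitochondrial genes did not differ alike between the libraries. In globin-low cells mt-Atp8 was at 199.99 CPM in hypoxia and 140.93 CPM in control, a ratio of 1.42 (95% interval 1.38 to 1.46). mt-Co3, a core subunit of cytochrome c oxidase, was at 4567 CPM and 3392 CPM, and mt-Co1, its catalytic subunit, at 19406 CPM and 15648 CPM. In contrast mt-Nd2, a core subunit of complex I, was at 4847 CPM and 5593 CPM, a ratio of 0.867 (0.863 to 0.871). The values for mt-Nd4 were 5313 CPM and 5480 CPM, and those for mt-Nd1 6004 CPM and 6290 CPM. As a result complex IV transcripts made up 45.8% of mitochondrial member UMIs in hypoxia and 42.4% in control globin-low cells, while complex I transcripts made up 30.9% and 34.1%.

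All 13 mitochondrial members of HSC/MPP cells had log2 ratios above 0, and none reached 1.5-fold. mt-Atp8 was at 176 CPM in hypoxia and 119 CPM in control, a ratio of 1.49 (1.26 to 1.76). mt-Nd3 was at 2285 CPM and 1703 CPM, and mt-Nd5, a core subunit of complex I, at 3139 CPM and 2367 CPM. mt-Nd4l was at 1325 CPM and 1033 CPM, and mt-Nd4, which overlaps it by 7 bases, was at 5395 CPM and 5362 CPM. Because of the overlap, UMIs of this pair may not be fully told apart. mt-Nd1 was at 4571 CPM and 3909 CPM, and mt-Nd2 at 4364 CPM and 4038 CPM. mt-Co1 was at 20002 CPM and 17580 CPM, mt-Co2 at 9923.5 CPM and 9599 CPM, and mt-Co3 at 4448 CPM and 3561 CPM. Members of complexes I and IV thus lay both among the highest and among the lowest of the 13 ratios.

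mt-Atp8 had a log2 ratio above 0 in all 11 gates. Its ratio was highest in globin-high cells, at 166 CPM in hypoxia and 96.9 CPM in control, a ratio of 1.71 (1.53 to 1.91). Without the added 10 CPM the ratio of mt-Nd6, the member read from the other strand, was above that of mt-Atp8 in basophil/mast, megakaryocyte, globin-onset and globin-high cells. This gene was at 46.8 CPM and 24.8 CPM in globin-high cells and at 38.6 CPM and 22.3 CPM in basophil/mast cells. Its end overlaps that of mt-Nd5 on the opposite strand, and the sources used here do not say whether counting used strand, so reads there cannot be told apart. mt-Atp6 was at 8780 CPM and 6848 CPM in globin-high cells.

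**Figure D3:**
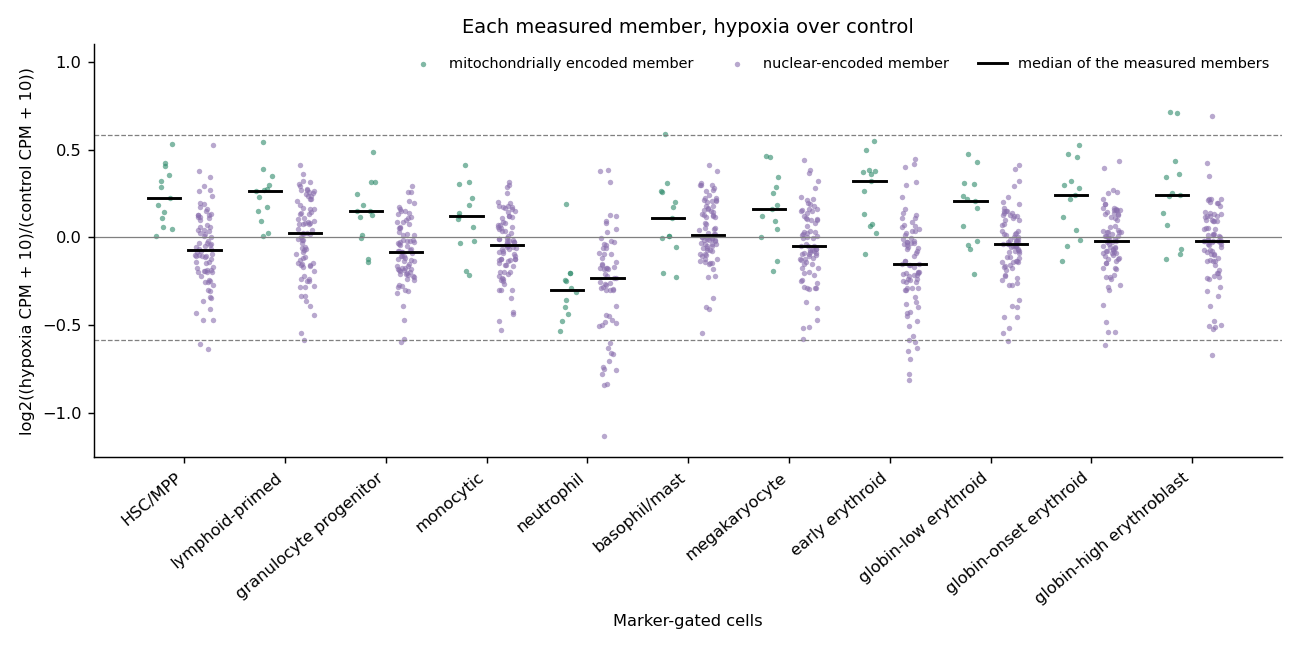
Log2 ratio of hypoxia over control CPM (10 added) of each measured member in each compared gate, with nuclear and mitochondrial members in different colours and their medians marked. The mitochondrial medians lie between 0.11 and 0.32 in 10 gates and at -0.30 in neutrophils, and the nuclear medians between -0.23 and 0.02.

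Of nuclear members, Atp5g1 stood lowest in the whole-library comparison. It encodes subunit c, which forms the rotating ring of ATP synthase, and lies on chromosome 11 from 96068852 to 96075670 (GRCm38). Over all cells it was at 311 CPM in hypoxia and 512 CPM in control, a ratio of 0.607 (0.600 to 0.615), and was the 1 member of 94 measured that was at least 1.5-fold lower. The unlike mix of gates in the libraries enters this ratio, and the interval does not cover it. Within gates the log2 ratio of Atp5g1 ran from -0.83 in neutrophils to -0.39 in basophil/mast cells. Of all 14062 genes measured, 1.11% were at least 1.5-fold lower and 2.57% at least 1.5-fold higher, and no member was higher by that much.

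Of 91 members measured in HSC/MPP cells, 2 were at least 1.5-fold lower in hypoxia, against 3.08% of 8627 genes, and none was higher, against 3.08%. Atp5g1 was at 141 CPM in hypoxia and 220.0 CPM in control, a ratio of 0.642 (0.550 to 0.748). Uqcrq, a small subunit of complex III on chromosome 11 from 53427922 to 53430831, was at 138 CPM and 219 CPM, a ratio of 0.629 (0.538 to 0.735). Atp5j2, another ATP synthase subunit, came next at 49.0 CPM and 71.7 CPM. Of nuclear members the highest were Atp5s, known as coupling factor B, at 22.1 CPM and 12.3 CPM, Ndufa9 at 103 CPM and 76.6 CPM and Ndufa8 at 73.8 CPM and 56.0 CPM. The share of members past 1.5-fold was therefore no higher than that of all genes. With cells thinned to 3000 UMIs the log2 ratios of Atp5g1 and Uqcrq were -0.37 and -0.38, short of 1.5-fold.

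In lymphoid-primed cells no member of 91 reached 1.5-fold, against 3.71% of genes higher and 2.94% lower. Uqcrq came nearest, at 149 CPM in hypoxia and 229 CPM in control, followed by Atp5g1 at 151 CPM and 225 CPM and Atp5e at 204 CPM and 280.2 CPM. Of nuclear members Cox6b2 was highest by log2 ratio (0.41), then Sdhd (0.36) and Cox6a2 (0.32). In cells of this gate without Siglech, a marker of plasmacytoid dendritic cells, Cox6a2 was at 90.6 CPM in hypoxia and 88.4 CPM in control.

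Granulocyte progenitors had 1 of 91 members at least 1.5-fold lower, against 1.29% of genes, and none higher, against 1.15%. That member was Atp5e, the epsilon subunit of the ATP synthase stalk on chromosome 2 from 174461072 to 174464105, at 237 CPM in hypoxia and 363 CPM in control. Atp5g1 (276 CPM and 417 CPM) and Ndufs6 (66.3 CPM and 95.7 CPM) came next, and Sdhd, Ndufs1 and Ndufa8 were the highest nuclear members, with log2 ratios of 0.29, 0.26 and 0.26. In monocytic cells no member of 94 reached 1.5-fold, against 2.25% of genes higher and 1.63% lower. Atp5e, Atp5g1 and Cox6a2 were lowest there (log2 ratios -0.53, -0.48 and -0.44), and Atp5g3, Sdhc and Sdhd were the highest nuclear members (0.32, 0.30 and 0.29).

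Megakaryocytes had no member of 90 past 1.5-fold, against 2.96% of genes higher and 3.06% lower. Ndufs6 was lowest there at 65.5 CPM in hypoxia and 103 CPM in control, with Atp5g1 and Uqcr11 after it (log2 ratios -0.52 and -0.51). Ndufs1, Cox6b2 and Ndufb4 were the highest nuclear members (0.44, 0.38 and 0.37). In basophil/mast cells no member of 91 was at least 1.5-fold lower, against 3.01% of genes, and mt-Nd6 alone was higher, against 3.22%. Atp5e, Ndufa6 and Atp5g1 were lowest of the nuclear members (log2 ratios -0.54, -0.41 and -0.39), and Sdhd, Atp5g3 and Ndufc2 highest (0.41, 0.38 and 0.31).

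Early erythroid cells had 7 of 91 members at least 1.5-fold lower in hypoxia, against 3.02% of 9187 genes, and none higher, against 5.11%. Atp5g1 was at 294 CPM in hypoxia and 523 CPM in control, a ratio of 0.561 (0.524 to 0.601). Ndufs6, an accessory subunit of the NADH-oxidizing arm on chromosome 13 from 73319838 to 73328542, was at 63.8 CPM and 117 CPM. Ndufa5, which sits in the same arm, was at 68.7 CPM and 117 CPM. The others were Uqcrq (228 CPM and 362 CPM), Uqcr11 (217 CPM and 341 CPM), Atp5e (228 CPM and 350.2 CPM) and Cox5a, a subunit of cytochrome c oxidase (247 CPM and 376 CPM). Members of complexes I, III, IV and V were among them, and complex II had none. Ndufs1, Cox6b2 and Atp5s were the highest nuclear members, with log2 ratios of 0.45, 0.42 and 0.40.

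Atp5g1 was also the single member at least 1.5-fold lower in each of the later erythroid gates. In globin-low cells, where 92 members were measured, it was at 384 CPM in hypoxia and 582 CPM in control, against 1.24% of genes lower and 2.13% higher. In globin-onset cells, with 91 measured, it was at 320 CPM and 493 CPM, against 1.77% lower and 2.82% higher. In globin-high cells, with 91 measured, it was at 246 CPM and 396 CPM, against 2.3% lower, and 3 members (Atp5s, mt-Atp8 and mt-Nd6) were at least 1.5-fold higher, against 3.97%. Atp5s was at 21.9 CPM and 9.77 CPM in globin-high cells, from 37 control UMIs.

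The next nuclear members of these gates, ranked among nuclear members alone, lay short of 1.5-fold. In globin-low cells Uqcrq (log2 ratio -0.54) and Ndufs6 (-0.51) were next lowest, and Cox6b2 (0.41), Atp5s (0.39) and Ndufs1 (0.32) highest. Globin-onset cells had Ndufs6 (-0.54) and Uqcrq (-0.53) lowest after Atp5g1, and Atp5s (0.44), Cox6b2 (0.39) and Ndufs1 (0.27) highest. In globin-high cells Uqcrq (-0.52) and Ndufa5 (-0.51) followed Atp5g1, and Ndufs1 (0.42) and Cox7a2l (0.35) followed Atp5s.

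Neutrophils differed from the other gates in both sets. There 12 of 75 measured members were at least 1.5-fold lower in hypoxia, against 9.53% of 3065 genes, and none was higher, against 9.89%. Ndufv2, an iron-sulfur subunit of complex I, was at 52.0 CPM in hypoxia and 126 CPM in control, from 23 and 60 UMIs. Ndufb7 was at 88.1 CPM and 165 CPM, and Atp5g1 at 133 CPM and 245 CPM. Uqcrc1, Atp5e, Cox7b, Atp5h, Uqcrq, Atp5d, Ndufb3, Ndufa10 and Atp5k were the others, while Ndufs4, Uqcrc2 and Atp5g3 were highest (0.38, 0.38 and 0.31). In the hypoxia gate 68 of 98 cells (69.4%) had under 2% mitochondrial UMIs, against 43 of 67 control cells (64.2%). Within the cells at or above 2% the mitochondrial members made up 5.98% in hypoxia and 6.65% in control, and the nuclear members 1.38% and 1.55%. Within the cells below 2% the mitochondrial members made up 0.810% and 1.14%, and the nuclear members 0.547% and 0.679%. The share of cells with few mitochondrial UMIs and the low depth of the gate (medians of 2986.5 and 4472 UMIs) moved with this result, and their part in it was not tested.

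Over the 11 gates, member and gate pairs at least 1.5-fold lower numbered 25 of 988 (2.53%), against 2.49% of all 96121 gene and gate pairs measured, and those at least 1.5-fold higher 4 (0.405%), against 3.19%. The share of lower pairs was thus near that of all genes. Neutrophils gave 12 of the 25 lower pairs, in a gate where 9.53% of all genes measured were lower, so the pooled share leans on this gate. Of 63 nuclear members measured in every gate, 16 (25.4%) had log2 ratios below 0 in all 11, against 11.8% of the 2537 genes so measured. The 16 were Atp5g1, Uqcrq, Atp5e, Uqcr11, Atp5j2, Uqcrb, Cox8a, Ndufs5, Atp5j, Atp5l, Cox6a1, Uqcrc1, Atp5h, Cox7b, Ndufa3 and Atp5b, which belong to complexes I, III, IV and V. No minimum size was set for a sign, and some of the 16 were close to 0 in a gate. Examples were Atp5l in basophil/mast cells (-0.003) and Ndufs5 in neutrophils (-0.005). Ndufa2 and Ndufa9, both of complex I, were above 0 in all 11 (3.17% of the 63, against 11.6% of genes). Cox5a in early erythroid cells (-0.59), Atp5g1 in globin-low cells (-0.59) and mt-Nd6 in basophil/mast cells (0.59) lay just past 1.5-fold. With cells thinned to 3000 UMIs, 17 of the 30 differences past 1.5-fold (these pairs and Atp5g1 over all cells) still had a value, all 17 in the same direction and 8 of them past 1.5-fold. Of the 30, those still past 1.5-fold numbered 18 with means over cells, 19 with gate limits halved and 22 with them doubled, and all 30 kept their direction in each. Each gate draws on the same 2 libraries, so a sign shared by gates does not stand for replication.

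**Figure D4:**
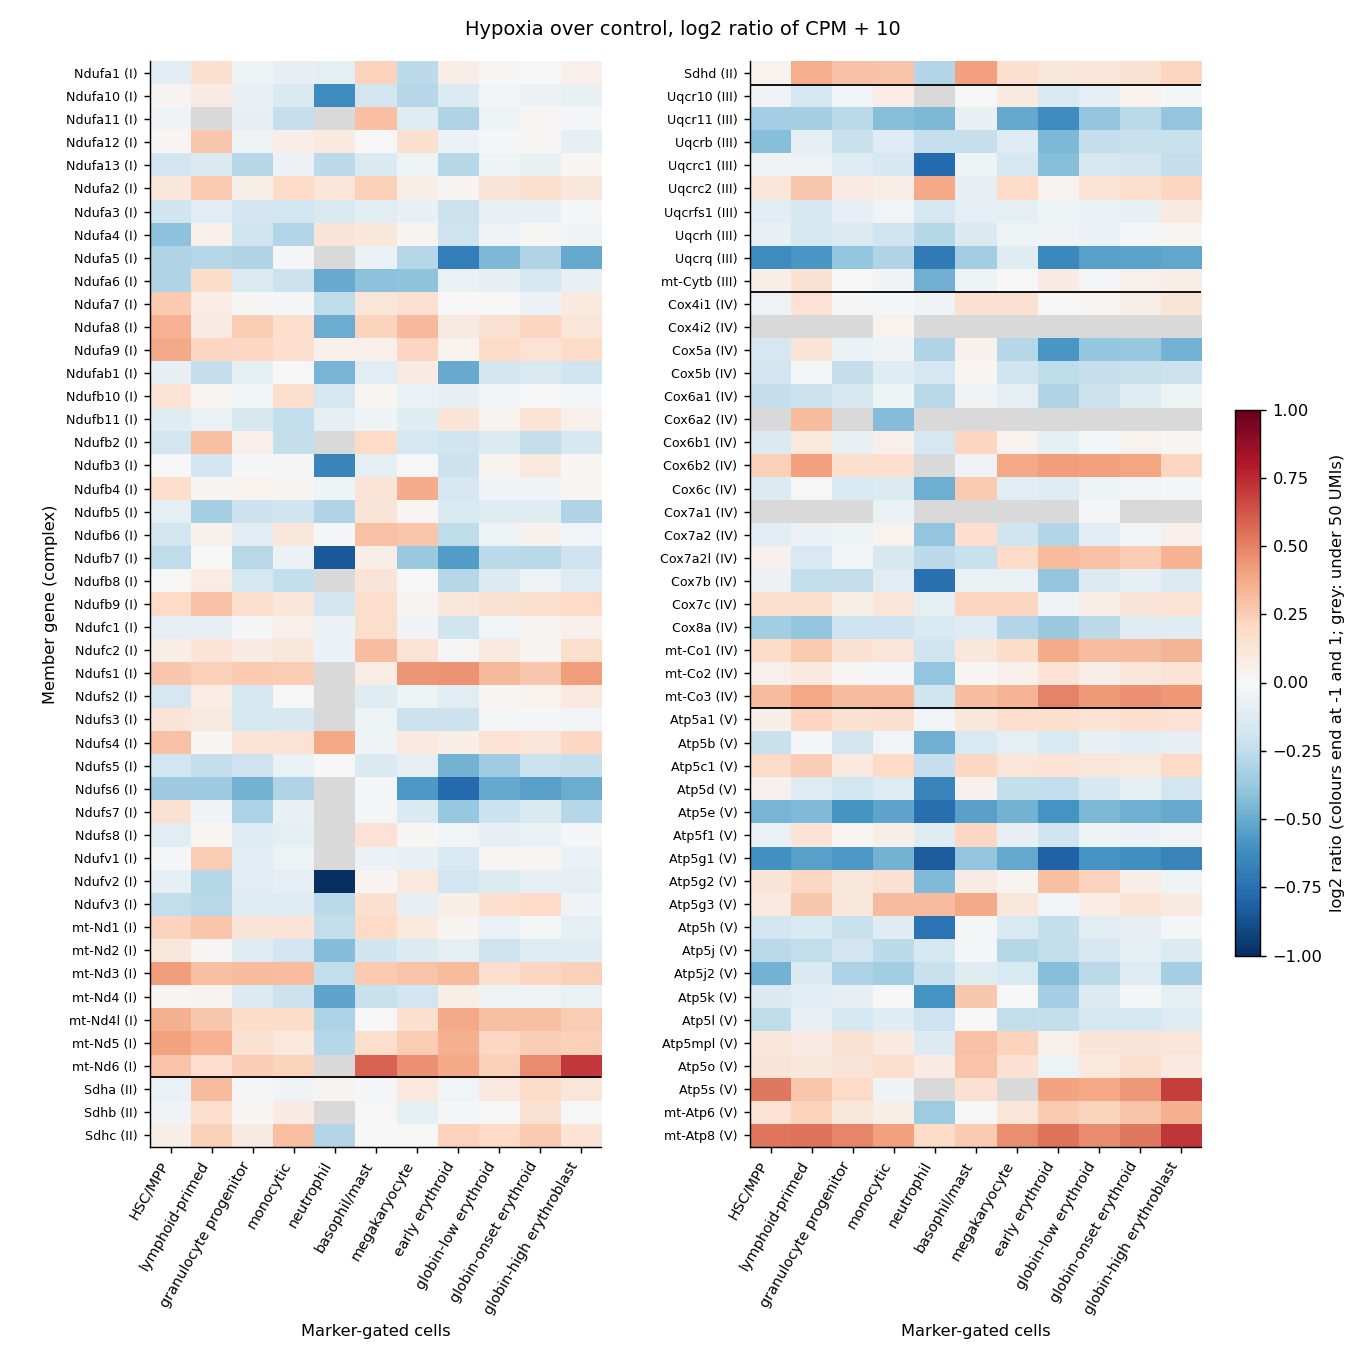
Log2 ratio of hypoxia over control CPM (10 added) for each of the 94 members measured in at least 1 gate, in rows by complex, in each compared gate, in columns, with colours that end at -1 and 1 and grey where a member had under 50 UMIs. Atp5g1, Uqcrq and Atp5e are lower in hypoxia in all 11 gates, and most mitochondrial members are higher in gates other than neutrophils.

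The 3 subunit c genes were not shifted alike. Atp5g1 made up 10.2% of their UMIs in hypoxia HSC/MPP cells (95% interval 9.11 to 11.5) and 16.2% in control HSC/MPP cells (14.8 to 17.6). In globin-low cells it made up 16.4% and 24.7%, and in globin-high cells 15.1% and 23.0%. Over the 11 gates its share lay between 10.2% and 17.4% in hypoxia and between 16.2% and 27.3% in control, and the hypoxia share was the lower in each gate. Atp5g3 made up 49.3% and 46.4% in globin-low cells and 59.3% and 52.3% in globin-high cells, and Atp5g2 made up 53.6% and 49.6% in HSC/MPP cells. Atp5g2 was at 739 CPM and 675 CPM and Atp5g3 at 498 CPM and 465 CPM in HSC/MPP cells, so the lower level in hypoxia was that of Atp5g1. The difference in its share was -5.93 percentage points in HSC/MPP cells, and -3.52 with cells thinned to 3000 UMIs.

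Cytochrome c oxidase has several subunits with tissue-bound isoforms. Cox6b2, known as the testis form of subunit 6B, lies on chromosome 7 from 4751792 to 4753094. It made up 25.7% of COX6B UMIs in hypoxia and 20.3% in control globin-low cells, with 238 CPM and 176 CPM. In early erythroid cells it made up 27.6% (26.0 to 29.3) and 20.9% (19.7 to 22.1), and in HSC/MPP cells 21.2% (18.4 to 24.2) and 16.8% (14.4 to 19.4). Its share was lower in megakaryocytes, at 6.93% and 5.24%, and in monocytic cells, at 8.55% and 7.75%. In basophil/mast cells and neutrophils the share was lower in hypoxia, with overlapping intervals. It was 12.4% (11.1 to 13.8) and 14.5% (12.4 to 16.9) in basophil/mast cells, and 10.4% (6.06 to 16.3) and 14.2% (9.66 to 19.9) in neutrophils. On the log2(CPM + 10) scale its range over gates was the widest among complex IV members after that of Cox6a2.

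**Figure D5:**
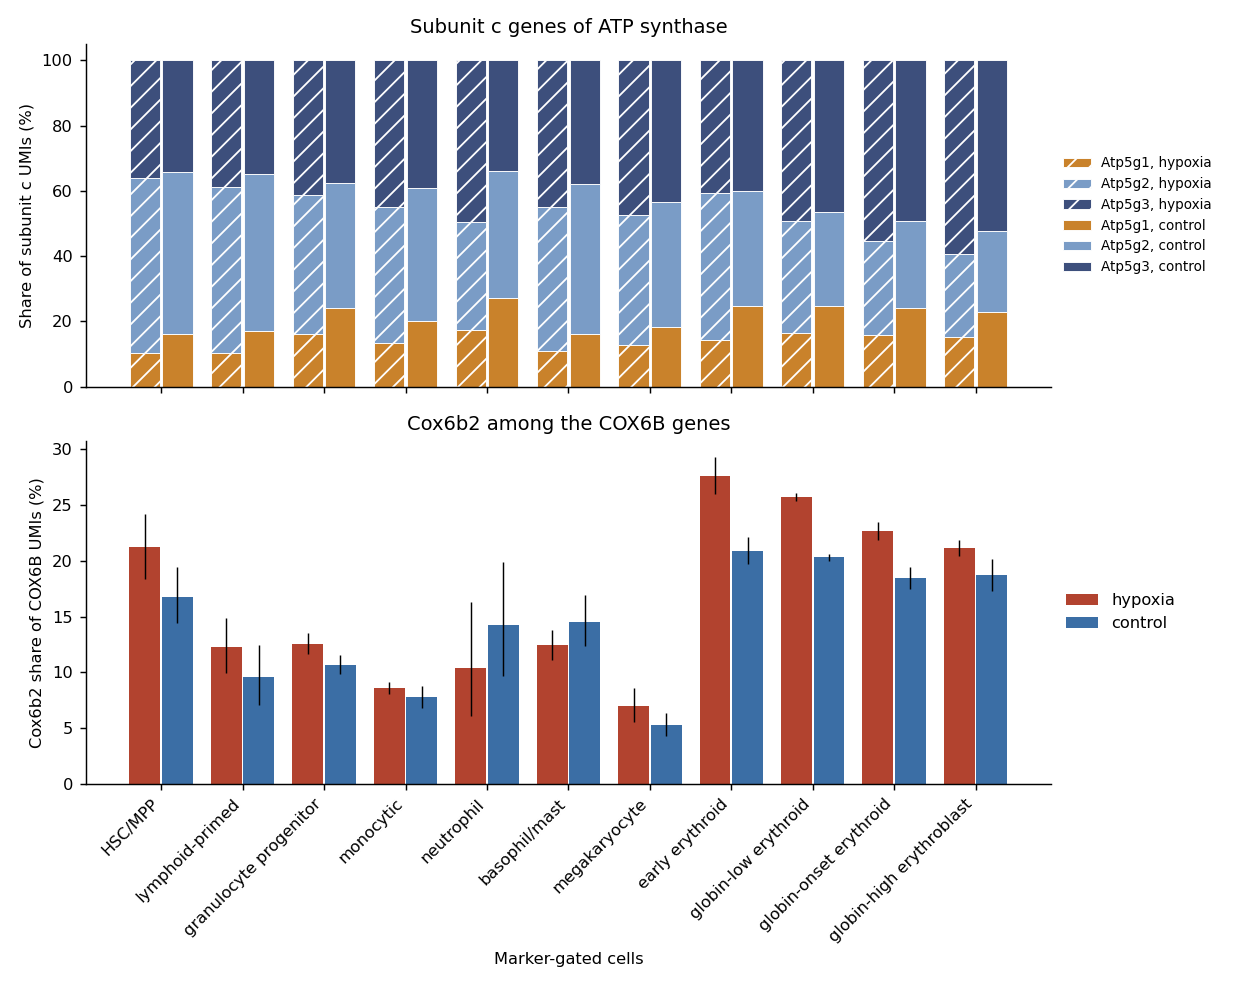
Share of UMIs (%) of each subunit c gene among Atp5g1, Atp5g2 and Atp5g3 (upper panel) and of Cox6b2 among the COX6B genes (lower panel) by gate, hypoxia beside control. Atp5g1 has a lower share in hypoxia in all 11 gates, and Cox6b2 has its highest shares in early erythroid cells, 27.6% in hypoxia and 20.9% in control.

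Cox6a2, the heart and skeletal muscle form of subunit 6A on chromosome 7 from 128205435 to 128206387, had its highest level in lymphoid-primed cells. It was at 117 CPM in hypoxia and 91.9 CPM in control there, or 31.1% and 23.3% of COX6A UMIs. Of its 502 hypoxia and 282 control UMIs, 207 and 125 were in lymphoid-primed cells, and 254 and 124 were in the larger monocytic gate. Of lymphoid-primed cells, 72 of 149 hypoxia cells (48.3%) and 52 of 96 control cells (54.2%) had a Cox6a2 UMI, against 4 of 2097 (0.191%) and 2 of 1761 (0.114%) in the deeper globin-low cells. The median depths were 10803 and 13380 UMIs in lymphoid-primed cells and 29800 and 42636 in globin-low cells, so the share was higher in the shallower cells.

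Cox6a2 was higher in cells with Siglech, a marker of plasmacytoid dendritic cells. In the lymphoid-primed gate 16 of 20 hypoxia cells and 3 of 4 control cells with a Siglech UMI also had a Cox6a2 UMI, with 268 CPM and 191 CPM. Cells without Siglech still held it, 56 of 129 and 49 of 92, with 90.6 CPM and 88.4 CPM. The libraries thus differed little in these cells, while cells with Siglech were 20 of 149 in hypoxia and 4 of 96 in control. In the monocytic gate the level was 94.97 CPM and 111.3 CPM in cells with Siglech, against 5.81 CPM and 13.5 CPM in cells without. HSC/MPP cells had 15 Cox6a2 UMIs in hypoxia and 2 in control.

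Of the other isoforms, Cox7a2l differed by cell type and in some gates between the libraries, and the rest were rare. Cox7a2l made up 65.3% and 62.7% of COX7A UMIs in HSC/MPP cells and 67.5% and 68.7% in lymphoid-primed cells, against 39.4% and 32.8% in globin-low cells. In early erythroid cells it made up 52.3% (50.2 to 54.4) in hypoxia and 41.5% (39.9 to 43.2) in control. Basophil/mast cells went the other way, with 50.7% (48.8 to 52.6) and 57.6% (54.8 to 60.3). Cox4i2, an isoform known for its induction by low oxygen, had 97 UMIs in hypoxia and 41 in control, of which 72 and 20 were in monocytic cells. That was 0.508% (0.398 to 0.639) and 0.456% (0.279 to 0.704) of monocytic COX4 UMIs. Ndufa4l2, a target of hypoxia-inducible factor 1 known to replace Ndufa4, had 19 UMIs in hypoxia and 29 in control. Cox7b2 had 2 and 1 UMIs and Cox7a1, the muscle form, 93 and 90. At this depth no difference of Ndufa4l2, Cox7b2 or Cox7a1 between the libraries was detectable.

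Genes that assemble and regulate the complexes are given by whole lists. Of all genes measured in HSC/MPP cells, 3.08% were at least 1.5-fold higher and 3.08% at least 1.5-fold lower. In globin-low cells these shares were 2.13% and 1.24%. With lists this short, 1 gene past 1.5-fold does not set a list apart from these shares. None of 12 measured complex I assembly factors and none of 27 factors for complexes II to V was past 1.5-fold in HSC/MPP cells, with median log2 ratios of 0.00 and -0.02. Foxred1 (0.37) and Ndufaf1 (-0.34), and Sdhaf4 (0.38) and Sdhaf3 (-0.57), were at the ends of those lists. In globin-low cells 1 of 15 complex I factors was at least 1.5-fold lower, Ndufaf2, at 24.9 CPM in hypoxia and 51.6 CPM in control, and 1 of 32 others was at least 1.5-fold higher, Cox17, a copper chaperone for cytochrome c oxidase, at 246 CPM and 158 CPM. Timmdc1 was highest of the complex I factors (0.46) and Coa7 lowest of the others (-0.33).

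Of 15 electron carrier and ubiquinone synthesis genes in HSC/MPP cells, 1 was at least 1.5-fold higher, Coq7, at 23.7 CPM in hypoxia and 11.3 CPM in control, and Coq5 was lowest (-0.53). Of 20 in globin-low cells, 1 was at least 1.5-fold lower, Cycs, which encodes cytochrome c, at 205 CPM and 345 CPM, and Etfdh was highest (0.31). None of 12 regulators of mitochondrial biogenesis passed 1.5-fold in either gate. In HSC/MPP cells Tfam, which packages and transcribes mitochondrial DNA, was highest at 153 CPM and 110.0 CPM, and Myc lowest at 374 CPM and 547 CPM. In globin-low cells Gabpa (0.28) and Ppargc1b (-0.26) were at the ends.

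Of genes for mitochondrial DNA transcription and RNA handling, 1 of 20 in HSC/MPP cells was at least 1.5-fold higher, Pnpt1, which encodes polynucleotide phosphorylase, at 44.8 CPM in hypoxia and 26.0 CPM in control, and Fastk was lowest (-0.40). None of 27 passed in globin-low cells, where Pnpt1 (0.51) and Slirp (-0.38) were at the ends. None of 8 carriers of adenine nucleotides and phosphate passed in either gate. Vdac1 (0.31) and Vdac3 (-0.26) were at the ends in HSC/MPP cells, and Ucp2 (0.18) and Slc25a5 (-0.21) in globin-low cells.

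Of mitochondrial regulators known to respond to hypoxia, 1 of 9 in HSC/MPP cells was at least 1.5-fold higher, Pdk1, the kinase that restrains entry of pyruvate into the citric acid cycle, at 86.4 CPM in hypoxia and 32.9 CPM in control. Isca1 was lowest (-0.33), and the list's median was 0.23. In globin-low cells Bnip3l, the receptor for removal of mitochondria in maturing red cells, was at 217 CPM and 141 CPM, and Higd1a was at 83.4 CPM and 132 CPM. Those were the 1 gene higher and the 1 gene lower of 9 measured. Beside these lists, mitochondrial ribosomal protein genes had medians of -0.14 in HSC/MPP and -0.16 in globin-low cells, and cytosolic ribosomal protein genes -0.09 and -0.10.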

How the data were processed

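The authors deposited 1 table of raw UMI counts per library, error-corrected by their pipeline and otherwise unscaled. Per the file headers, this was version 1.7.1 of the BD WTA Rhapsody Analysis Pipeline with the GRCm38 genome and GENCODE vM19 genes. The submitters' processing notes name Bowtie2. The sources used here do not give the calling of cells or the use of strand in counting.

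There were 6406 hypoxia cells with 137504361 UMIs, and 3956 control cells with 121415081 UMIs. Scrublet in scanpy 1.11.5 (seed 0) marked 112 hypoxia cells (1.75%) and 33 control cells (0.834%) as doublets, which were removed. Gates were tried in a fixed order: cells with markers of 2 lineages (106 hypoxia and 63 control cells) and with none (59 and 54) stayed out. UMIs were summed per gate and library, divided by the gate's total and scaled to CPM. Near-identical processed copies of members have almost no columns in the tables, so their reads cannot be counted apart, and mitochondrial ribosomal RNA genes were not analysed here. Positions are from GRCm38 with GENCODE vM21 and promoters from RefSeq (GRCm38.p6). The log2 ratio was tested on Poisson counts simulated from the sums of each gate.

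Named genes are all 13 mitochondrial members, the 3 highest and 3 lowest nuclear members of each gate, isoform pairs, succinate dehydrogenase, the widest and narrowest range in each complex and the ends of the related lists. Members, lists, marker limits and thresholds were chosen with earlier results of these data known. Alternatives were TMM scaling (edgeR 4.0.16 in R 4.3.3), a total without mitochondrial genes, means over cells, 1 CPM added, other gate limits, doublets kept, a 10% mitochondrial limit, thinned cells and, chosen after the data were seen, cells under 2% mitochondrial UMIs left out. Python 3.11.15, numpy 2.4.6, scipy 1.17.1, pandas 2.3.3 and matplotlib 3.10.9 were used.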

Additional observations from a re-analysis of the deposited data

Results flagged for a closer look

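Mitochondrial members of neutrophils stood apart from those of the other gates. Their median log2 ratio of hypoxia over control was -0.298 in neutrophils and between 0.11 and 0.32 in the other 10 gates compared, and with 1 library per group this difference was not tested. Of the 12 mitochondrial members measured in neutrophils, mt-Atp8 alone was above 0 (0.19). Cells with under 2% mitochondrial UMIs made up 69.4% of hypoxia and 64.2% of control neutrophils, a share whose part in the result was not tested.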

How the results depend on the processing

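No paired analysis was possible because each group had 1 library. Of 380 group results under alternatives, 353 stayed within the spread set for them and 27 moved, and no called value reversed. The mitochondrial medians stayed above 0 in 10 gates under every alternative that gave a value, and below 0 in neutrophils. TMM scaling moved nuclear medians to -0.16 over all cells, -0.10 in megakaryocytes, -0.24 in early erythroid, -0.14 in globin-low and -0.075 in globin-onset cells. Means over cells gave nuclear medians of 0.079 in megakaryocytes and 0.071 in globin-high cells, a mitochondrial median of 0.38 in early erythroid cells, 8 pairs at least 1.5-fold higher (4 in the main count), and globin-low over HSC/MPP nuclear share ratios of 1.81 in hypoxia and 1.83 in control. Those ratios were 1.82 and 1.77 with gate limits doubled, 1.53 and 1.51 with them halved and 1.76 and 1.73 in thinned cells. With 1 CPM added, and with limits halved, 7 pairs were higher. Neutrophil nuclear and mitochondrial medians were -0.15 and -0.18 with doublets kept, and the nuclear one -0.15 with limits halved. Thinned cells (251 hypoxia and 150 control cells left out) gave 15 pairs higher and 14 lower (25 in the main count), a nuclear median of 0.064 in globin-high cells and an Atp5g1 share difference of -3.52 in HSC/MPP cells. Without cells under 2% mitochondrial UMIs, chosen after the data were seen, 13 pairs were lower. Neutrophils fell under 50 cells in these last 2 settings and gave no value. Causes were not tested. Low counts limit the rare isoforms and the neutrophil sums.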

Other observations

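Gates with fewer than 50 cells in a library were not compared, and their levels are given alone. Eosinophils (56 hypoxia and 17 control cells, gated by Epx) had 1.28% and 1.47% of UMIs from nuclear members, and 3.83% and 7.26% from mitochondrial members. Of the hypoxia eosinophils 6 had under 2% mitochondrial UMIs, and of the control eosinophils 0. Progenitors gated by Gata2 (48 and 112 cells) had 1.45% and 1.49% from nuclear and 7.04% and 6.09% from mitochondrial members, close to HSC/MPP cells. T, NK and innate lymphoid cells (61 and 38) had 1.40% and 1.41%, and 7.09% and 6.69%. Atp5g1 was at 127 CPM and 219 CPM in Gata2 progenitors, and at 141 CPM and 144 CPM in T, NK and innate lymphoid cells. Cox6b2 had 3 and 1 UMIs in the T, NK and innate lymphoid cells.

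Cells with few mitochondrial transcripts were not evenly spread over the gates. Under 2% mitochondrial UMIs were found in 12 of 720 hypoxia and 16 of 149 control globin-high cells, in 27 of 638 and 18 of 270 basophil/mast cells, and in 6 of 65 and 11 of 105 megakaryocytes. In HSC/MPP cells they numbered 0 of 190 and 2 of 172.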
